A study of Mus musculus with 8 samples.

Results

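Of the 42995 probes in the authors' deposited table of log2 values, 906 stood at least 1 log2 unit (2-fold) lower in Srf knockout than in wild-type aortic smooth muscle cells and differed by less than 0.5 log2 units between wild-type cells given Myocd and wild-type cells given an empty virus. The 906 probes were selected on these group means, with no test, so their knockout and Myocd values are a description of what was selected. The study hybridised mouse total RNA from 8 samples to 1-colour arrays that carry probes for long non-coding RNAs and mRNAs. Of these, 6 came from cultured aortic smooth muscle cells at passage 3, transduced at multiplicity of infection 100 and collected 3 days later. An empty adenovirus went to 2 wild-type and 2 Srf knockout samples, and an adenovirus carrying Myocd to 2 further wild-type samples. Freshly isolated wild-type aorta and liver had 1 array each. How Srf was deleted, and the strain, sex and age of the mice, are not stated in the labels. The labels leave unsaid whether replicates are separate animals or cultures, so any p-value here measures only the spread between arrays, which may be technical.

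Serum response factor, the product of Srf, binds CArG elements in the promoters of cytoskeletal, contractile and immediate early genes. It works through partner proteins, among them myocardin (the product of Myocd), which drives contractile genes in smooth and cardiac muscle, the related MRTF proteins, which respond to the state of actin, and the ternary complex factors, which respond to growth signals. A transcript can therefore need Srf and still depend on a partner other than myocardin. The array files give these 906 probes only the maker's identifiers, and neither a gene nor a sequence is paired with any of them here. No probe was assigned to Srf, Myocd or a marker of smooth muscle, endothelium, fibroblasts, macrophages, hepatocytes or adipocytes, which leaves the tissue and knockout labels unchecked here.

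In the authors' log2 values, on which the rule was applied, the knockout difference of the 906 probes reached -5.08, with a median of -1.25 (2.39-fold lower) and quartiles of -1.53 and -1.11. Most of them lay near the threshold. A fall of at least 1.5 log2 units was found for 236 probes, of at least 4-fold for 89 and of at least 8-fold for 19. The band from -1.1 to -1 held 212 of the 906, and the neighbouring band from -1 to -0.9 held 323 probes that met the Myocd condition but not the knockout one. The nearest probes on the 2 sides of the threshold were less than 0.01 apart. The Myocd difference had a median of -0.13, with 587 probes below 0 and 318 above, and 456 (50.3%) lay within 0.25. Another 186 probes that fell by 1 or more missed the rule with an absolute Myocd difference between 0.5 and 0.6, and 174 of the 906 lay between 0.4 and 0.5.

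**Figure D1:**
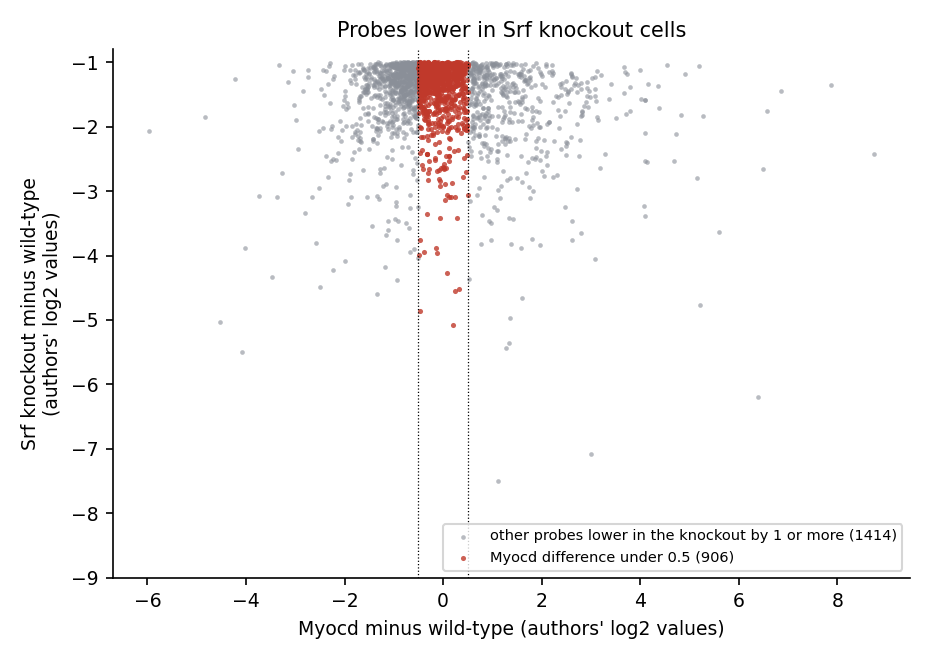
Myocd difference (horizontal axis) against Srf knockout difference (vertical axis), both in the authors' log2 values, for the 2320 probes that stood at least 1 log2 unit lower in the knockout; each point is a probe and the dotted lines mark differences of 0.5 in either direction. The 906 selected probes (red) lie between the lines and the others (grey) outside them, and red points thin out below a knockout difference of -2, where 89 lie.

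From here on, levels are log2 intensities (the scanner's processed signal) counted from the 75th percentile of the same array, so a level of 0 is that percentile. On this scale the median level of the 906 probes was -0.34 and -0.79 on the wild-type arrays, -2.08 and -1.70 on the knockout arrays and -0.72 and -0.54 on the Myocd arrays. The median over all probes of the table stayed between -1.51 and -1.40 on the same 6 arrays. The selected probes thus sat above the middle of the table in wild-type and Myocd cells and below it in knockout cells. Their median knockout difference was -1.21 in levels, where that of all probes in the table was 0.07.

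The replicates did not contribute equally. Wild-type replicate 1 exceeded replicate 2 in 667 of the 906 probes, with a median gap of 0.32, where over the whole table the median gap was -0.03. Knockout replicate 1 lay below replicate 2 by a median of 0.22 among the 906 probes (a difference of -0.22), where over the whole table the median difference was 0.02. Both knockout arrays lay below both wild-type arrays in 851 of the 906 probes, where 26.4% of all probes in the table did so. The rule itself favours this. In 332 of the 906 the gap was at least 1 log2 unit in every pairing. Applied without wild-type replicate 1 the rule found 716 probes, of which 495 were among the 906, and without wild-type replicate 2 it found 1081, of which 585 were. Without knockout replicate 1 it found 762 (638 shared) and without knockout replicate 2 it found 1298 (848 shared). Leaving out Myocd replicate 1 or 2 gave 936 (839 shared) or 899 (806 shared). Membership therefore depended on single wild-type arrays more than on single Myocd arrays. The form of the rule favours this too, since wild-type arrays enter both of its conditions and Myocd arrays only 1.

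A limma fit over all 6 cultured arrays tested 44081 probes, among them 902 of the 906. It called 685 of these lower in the knockout at a Benjamini-Hochberg adjusted p under 0.05, where it called 8.40% of all tested probes lower. The rule used this contrast, so the count is not support for it. Without knockout replicate 1 the median knockout difference of the 902 probes was -1.09, where that of all tested probes was 0.07. That fit takes the spread of the single knockout array from the remaining groups. Wild-type and knockout arrays lay on the same slide.

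The Myocd side of the rule was less well determined than its width. Myocd and wild-type arrays overlapped in 548 of the 906 probes, where they did so in 43.6% of all probes in the table. The 95% interval of the Myocd difference, from limma, had a median half-width of 0.53 log2 units. It lay within 0.5 in both directions for 86 of the 902 tested probes and within 1 for 613. For 132 of them the interval reached a rise of 1 log2 unit, so a 2-fold rise with Myocd was not outside the error. The Myocd arrays lay on a second slide, which cannot be told apart from Myocd. The rule used the Myocd contrast as well, so neither the overlap above nor the call that follows is support for a lack of change. By the limma call, 1 of the 902 probes differed with Myocd, where 15.2% of all tested probes did. That probe, ASMM10P034358, singled out after its values were seen, stood at -0.43 and -0.51 on the Myocd arrays and at -1.36 on wild-type replicate 2, while its spot on wild-type replicate 1 was flagged as an outlier by the scanner software and left out. Its Myocd difference was 0.89 (SE 0.18, limma adjusted p = 0.0363), with 1 wild-type array in the fit. The authors' value for the flagged spot put the same difference at -0.17, which is how the probe met the rule. Without wild-type replicate 1 the median Myocd difference of the 902 probes was 0.09, where over all tested probes it was -0.04. Without wild-type replicate 2 these medians were -0.27 and -0.01.

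In wild-type cells the mean levels of the 906 probes ran from -4.88 to 10.28, with a median of -0.61 and quartiles of -2.28 and 1.71. They did not reach the dim end of the table. Their lowest levels on the wild-type arrays were -6.05 and -5.59, where the table had -7.40 and -7.23. Of the 906 probes 390 (43.0%) reached 0 or more, where 35.3% of all probes in the table did. Both wild-type arrays measured 893 of them well above background and 1 array measured the other 13. On the Myocd arrays these numbers were 895 and 11, and on the knockout arrays 787 and 64, with 55 probes well above background on neither. For those 55 a fold is a lower bound, set by the lowest level well above background on each knockout array. The bounds had a median of at least 1.77-fold and reached at least 12.3-fold. These 55 were dim in wild-type cells too, at a median level of -4.15.

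The highest wild-type level belonged to ASMM10P019153, which stood at 10.09 and 10.48 on the wild-type arrays, 7.79 and 7.74 on the knockout arrays and 10.25 and 10.28 on the Myocd arrays. It was the brightest probe of the whole table on both wild-type arrays, both Myocd arrays and in aorta, at 10.45, while liver stood at 4.27. Its knockout difference was -2.52 (5.72-fold lower, SE 0.17) and its Myocd difference -0.02 (SE 0.17). Next was ASMM10P046343, with 9.34 and 9.53 in wild-type, 7.66 and 7.51 in knockout and 9.35 and 9.43 in Myocd cells. Its knockout difference was -1.85 (SE 0.15) and its Myocd difference -0.04 (SE 0.15). In aorta it stood at 9.34, close to wild-type replicate 1, and in liver at 1.83. Both probes were lower on each knockout array than on any other cultured array, and in both the Myocd arrays lay inside the range of the wild-type arrays.

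Among probes well above background on all 4 wild-type and knockout arrays, ASMM10P021430 had the largest fall. It stood at 1.64 and 0.57 in wild-type cells, -3.91 and -3.79 in knockout cells and 0.61 and 0.58 in Myocd cells. The knockout difference was -4.95 (31.0-fold lower, SE 0.34), and the gap between the wild-type arrays was larger than that between the knockout arrays. Its Myocd difference was -0.51 in levels (SE 0.34) and -0.46 in the authors' values, so it met the Myocd condition on the latter scale only. Its aorta level of -3.60 was near the knockout values, and its liver level of -2.65 lay between knockout and wild-type cells. The next, ASMM10P031917, stood at 3.22 and 3.31 in wild-type, -1.48 and -1.22 in knockout and 3.58 and 3.59 in Myocd cells, a knockout difference of -4.62 (24.6-fold lower, SE 0.15). Its aorta level was -0.24, between knockout and wild-type cells. In liver it was not well above background, so aorta exceeded liver at least 9.75-fold.

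**Figure D2:**
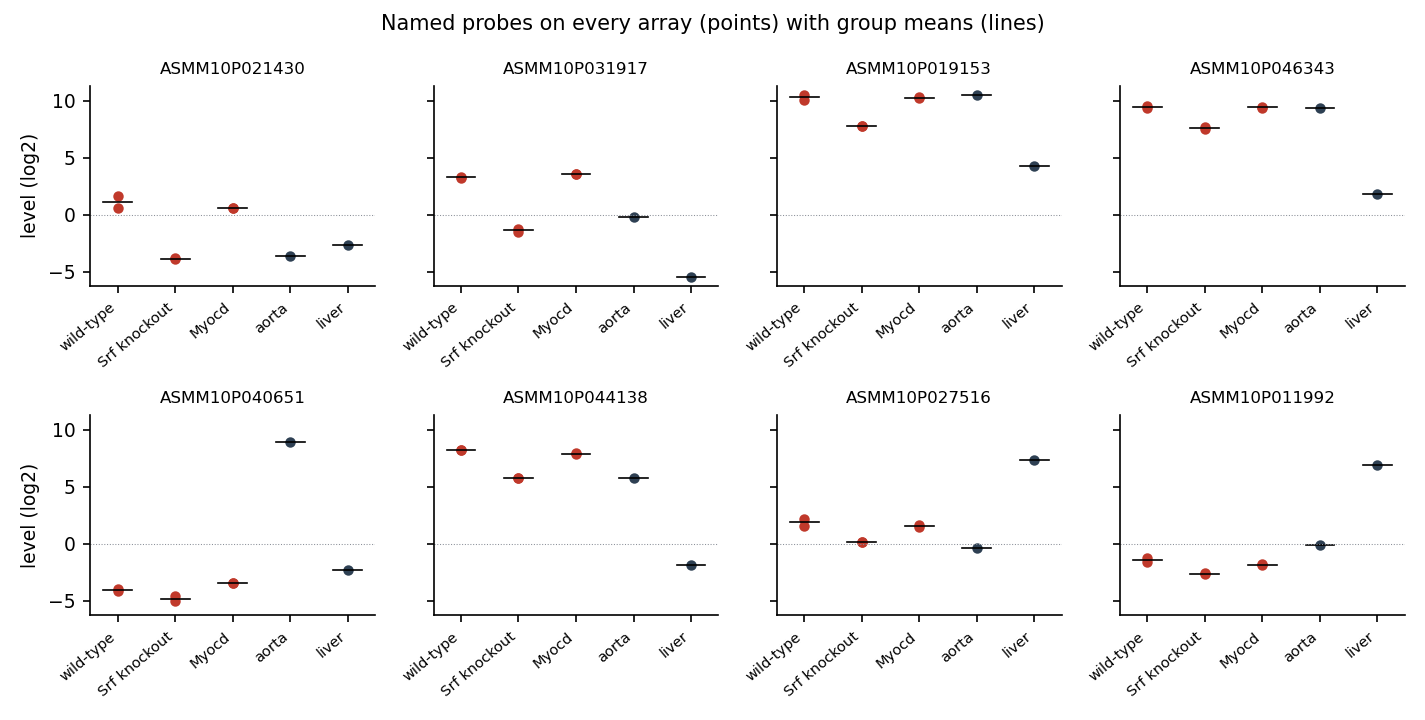
Level (log2 processed intensity minus the array's 75th percentile) of 8 of the 906 probes in each group; points are arrays, with 2 per cultured group and 1 per tissue, and short lines are group means. The upper row holds the 2 highest wild-type levels and the 2 largest falls among probes well above background on every wild-type and knockout array. The lower row holds the 2 largest differences of aorta over liver and of liver over aorta, among probes measured in both tissues. In the upper row every knockout point lies below every wild-type and Myocd point.

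In the tissues the 906 probes stood much lower than in culture. Aorta and liver are mixtures of cell types, and fewer cells of a type and less RNA per cell cannot be told apart in them. The median level was -2.54 in aorta and -3.53 in liver, where all probes of the table had -1.28 and -1.20. Aorta measured 688 of the 906 well above background (75.9%) and liver 423 (46.7%), against 91.9% and 81.2% of the table. Both tissues measured 397, aorta alone 291, liver alone 26 and neither 192, or 21.2% where the whole table had 5.35%. Every probe of the table passed that background flag on at least 4 arrays, which cultured arrays alone can satisfy. In the authors' values, 287 of the 906 probes (31.7%) sat at the lowest value of the liver array, where 7.69% of the table did.

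**Figure D3:**
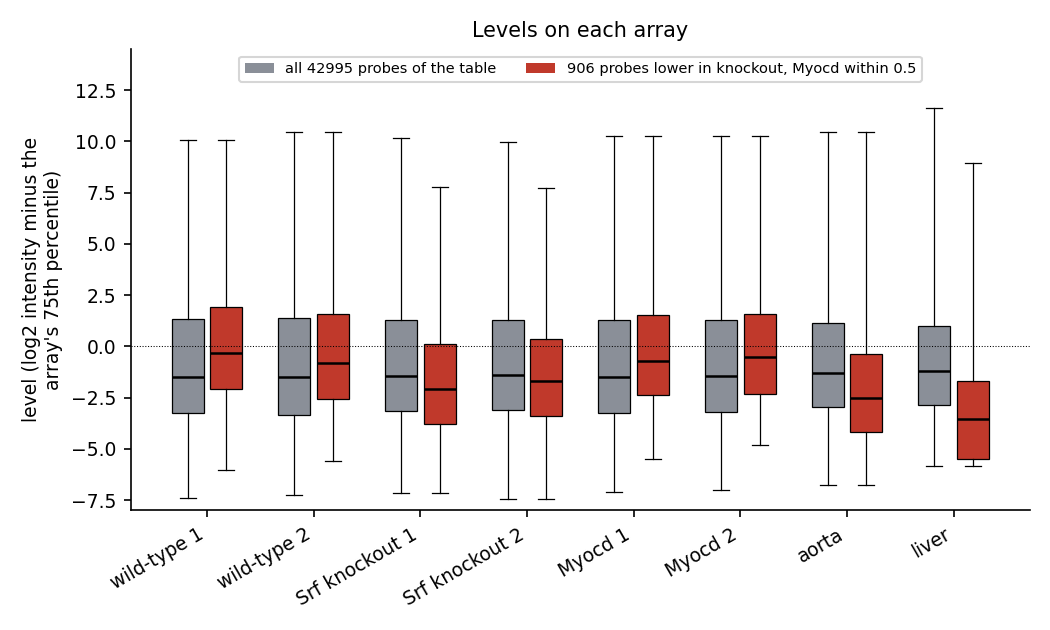
Level of the 906 probes (red) and of all 42995 probes of the table (grey) on each of the 8 arrays; boxes span the quartiles, lines mark medians and whiskers reach the lowest and highest probe. The red medians lie above the grey ones on the wild-type and Myocd arrays and below them on the knockout, aorta and liver arrays, at -2.54 in aorta and -3.53 in liver.

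The aorta level was below the wild-type mean in 802 of the 906 probes (88.5%, where 47.2% of the table were). The median difference was -2.14, against 0.09 over the table. At least 4-fold below lay 486 probes (53.6%, where 9.85% of the table did). The rule picked probes with high wild-type values, so a lower level elsewhere is in part what it selects, and the difference was not tested. The aorta level was also below the knockout mean in 649 of the probes (71.6%, where 51.7% of the table were). Here the median difference was -0.82. For most of the 906, therefore, fresh aorta gave less signal than cultured knockout cells, each relative to its own array. Aorta lay on a different slide from the wild-type and knockout arrays, and the part of the slide in this was not tested. Against the Myocd arrays, which shared its slide, the median aorta difference was -2.06, where the table had 0.04. The rule kept the Myocd means of these probes near the wild-type means. This value was therefore bound to lie near that against wild-type cells, and it cannot show the part of the slide. Aorta stood within 1 log2 unit of wild-type cells in 150 probes (16.6%, where 54.7% of the table did) and at least 2-fold above them in 58 (6.40%, where 22.6% of the table did). Across the 906 probes the order of levels in wild-type cells was shared with aorta (Spearman's rho 0.76) more than with liver (0.45), and over the whole table these values were 0.81 and 0.56. These are correlations across probes on the same arrays, and all of them share probe brightness.

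Aorta and liver were not used by the rule and lay on the same slide. With 1 array each there is no test, and the differences are given as sizes. The median aorta minus liver difference of the 906 probes was 0.72, where that of all probes in the table was -0.42, and 583 of the 906 (64.3%) were higher in aorta against 40.6% of the table. At least 4-fold higher in aorta were 173 probes, or 19.1%, where 12.4% of the table were. At least 4-fold higher in liver were 41, or 4.53%, where 10.9% of the table were. A probe not well above background in a tissue entered these counts with a bound, which in liver starts at a level of -3.52 and in aorta at -4.42, so dim probes could rarely reach 4-fold. The liver array's 75th percentile was 165 intensity units against 364 in aorta and 452 to 498 in the cultured cells, and the scaling to it moves the median of the whole table. With the authors' values, the medians were 1.02 for the 906 probes and -0.15 for the table, and 300 probes (33.1%) were at least 4-fold higher in aorta, where 17.8% of the table were, and 50 in liver, where 11.6% of the table were. Among the 397 probes that both tissues measured, the median difference was 0.33, against -0.61 for all 33737 such probes in the table. Relative to the table, the 906 probes lay 1.14 log2 units toward aorta, and with normexp background correction followed by quantile normalization 0.41. When the rule was applied without wild-type replicate 1 or without knockout replicate 1, the median aorta minus liver difference was 0.45 in both cases. Without wild-type replicate 2 it was 1.01, with 264 probes at least 4-fold higher in aorta, and without knockout replicate 2 there were 65 at least 4-fold higher in liver.

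The largest difference toward aorta, measured in both tissues, was that of ASMM10P040651, at 8.96 in aorta and -2.31 in liver. In cultured cells it was near the floor, at -4.09 and -3.93 in wild-type, -4.98 and -4.60 in knockout and -3.42 and -3.46 in Myocd cells. Its knockout difference was -0.78 in levels and -1.01 in the authors' values. The Myocd difference was 0.57 in levels and 0.47 in the authors' values. The probe thus met both conditions on the latter scale and neither on the former. ASMM10P044138 followed, at 5.73 in aorta and -1.88 in liver, with 8.26 and 8.24 in wild-type, 5.80 and 5.77 in knockout and 7.84 and 7.93 in Myocd cells. Its aorta level was close to that of knockout cells, and its knockout difference was -2.46 (SE 0.14). In the other direction, ASMM10P027516 stood at 7.32 in liver and -0.33 in aorta, with 1.61 and 2.20 in wild-type and 0.17 and 0.16 in knockout cells. ASMM10P011992 stood at 6.92 in liver and -0.10 in aorta, with -1.57 and -1.19 in wild-type and -2.59 and -2.64 in knockout cells. Both liver-rich probes were far brighter in liver than in any cultured array.

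**Figure D4:**
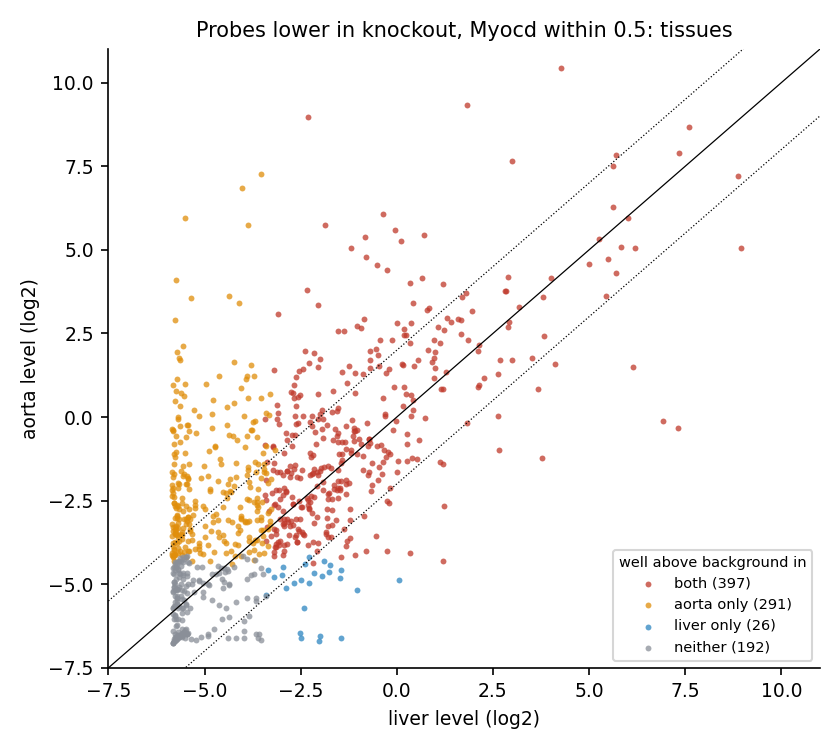
Liver level (horizontal axis) against aorta level (vertical axis), in log2 units relative to each array's 75th percentile, for the 906 probes, 1 point each, coloured by the tissues in which the probe was well above background; the solid line marks equal levels and the dotted lines 4-fold differences. Of these probes 397 were measured in both tissues and 291 in aorta alone, and the latter lie at the left, where liver gives only a bound.

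The 906 probes were divided into 4 parts of near equal size by their wild-type level, and each part was set beside the table probes in the same band of level. The median aorta minus liver difference lay above that of the band in every part. From the dimmest part to the brightest it was -0.17, 0.56, 0.82 and 2.31, where the bands had -0.79, -0.48, 0.18 and 0.29. The gap was widest in the brightest part. Its 227 probes had wild-type levels of 1.71 to 10.28, and 119 of them (52.4%) were at least 4-fold higher in aorta. Of the 9728 table probes in that band, 26.9% were that much higher. In the dimmer 3 parts the shares were 14.2%, 5.31% and 4.41%, against 18.7%, 7.41% and 3.60% of table probes in the same bands. Dim probes could rarely reach 4-fold, which limits these shares. The medians are limited too, since they take liver levels without a bound where liver was not well above background. Liver measured 24.2% of the dimmest part and 32.7% of the second, against 73.7% and 82.9% of table probes in those bands. Every part stood lower in both tissues than table probes of its band. In the brightest part the median level was 0.97 in aorta and -1.51 in liver, where the table had 3.23 and 2.87. In the dimmest part it was -4.48 and -5.01, where the table had -3.04 and -2.32. How the knockout difference went with brightness depended on the scale. In the authors' values its median was -1.30 in the dimmest part and -1.23 in the brightest, with a rho of 0.07 against the wild-type level. In levels the medians from the dimmest part to the brightest were -1.097, -1.17, -1.28 and -1.24, with a rho of -0.20. The dimmest part thus had the smallest median fall and the third part the largest. The rule cut the falls at -1 in the authors' values, not in levels. Across the 906 probes the aorta minus liver difference had a rho of 0.39 with the wild-type level and of -0.06 with the knockout difference in levels.

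**Figure D5:**
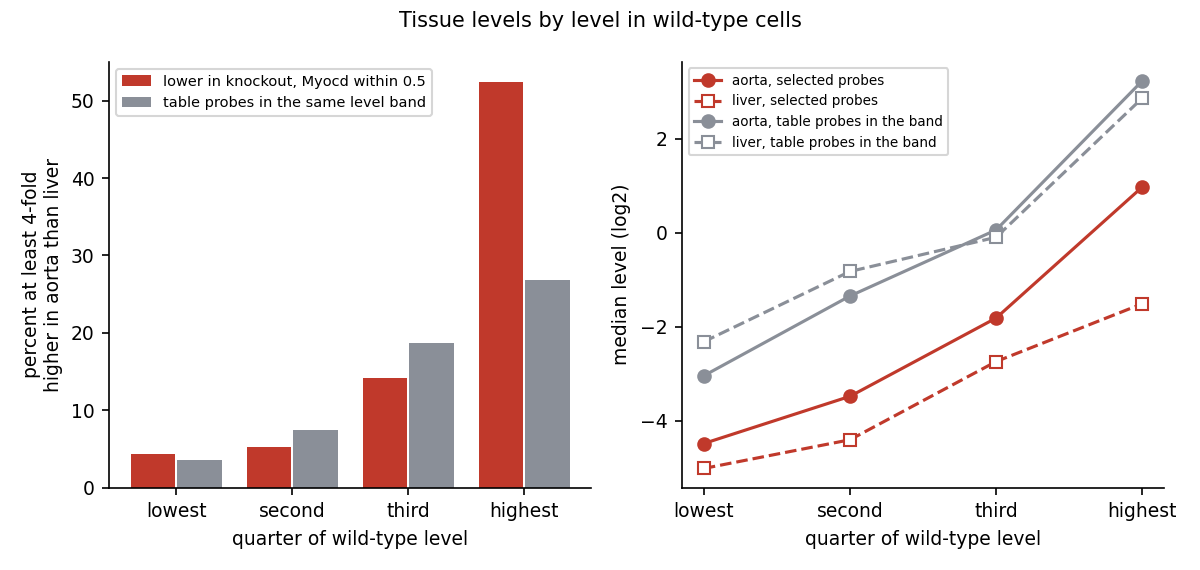
The 906 probes in 4 parts by their level in wild-type cells (red) beside all table probes in the same bands of level (grey). Left, the percent of probes at least 4-fold higher in aorta than in liver, 52.4% against 26.9% in the brightest part; right, the median level in aorta (circles, solid lines) and liver (squares, dashed lines), where each red line lies below its grey one.

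The other probes that fell by 1 or more in the knockout differed from these in their tissue levels. The 513 that rose by 0.5 or more with Myocd had a median aorta minus liver difference of 1.81, and 200 of them (39.0%) were at least 4-fold higher in aorta. The 901 that dropped by 0.5 or more with Myocd had a median of 0.38, with 133 (14.8%) at least 4-fold higher in aorta. The 906 probes, at 0.72 and 19.1%, lay between them and closer to the second group on these measures. Other measures went the other way. At least 4-fold higher in liver were 4.68% of the first group, 7.99% of the second and 4.53% of the 906. Higher in aorta by any amount were 70.2%, 56.3% and 64.3%. By these shares the 906 lay closer to the first group. The median wild-type level was similar in all 3 sets, at -0.64, -0.93 and -0.61 in the same order. Liver levels were similar too, with medians of -3.34, -3.51 and -3.53. These differences between sets rest on 1 array per tissue and were not tested.

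By class of identifier, 897 of the 906 probes began with ASMM10P, 7 with ASMM10UP and 2 with humanlincRNA, and none with mouselincRNA or MM9LINCRNAEXON. The labels do not say what the first 2 prefixes stand for. ASMM10P makes up 97.4% of the table and 99.0% of the 906 probes. The selected probes were 2.14% of the 41881 ASMM10P probes, 1.92% of the 365 ASMM10UP probes and 0.472% of the 424 humanlincRNA probes, with 0 of 277 mouselincRNA and 0 of 48 MM9LINCRNAEXON probes. The lincRNA classes were dim in wild-type cells, with median levels from -3.51 to -2.99 against -1.43 for ASMM10P, and few of their probes fell by 1 or more at all, 5 of humanlincRNA, 1 of mouselincRNA and 0 of MM9LINCRNAEXON. Of the 13 ASMM10UP probes that fell, 7 met the Myocd condition, a share of 53.8% where ASMM10P had 39.0%. The 7 had wild-type levels from -2.89 to 0.88 and knockout differences from -4.43 to -0.95. Aorta measured 5 of them and liver 4, and none was at least 4-fold higher in aorta.

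The 2 humanlincRNA probes are named because they are so few, and were chosen after their values were seen. The probe humanlincRNA0219-_P1 stood at -5.29 and -4.13 in wild-type cells and -6.38 and -4.97 in knockout cells, so the groups overlapped, and it passed the background flag on 4 arrays and was not tested. It was brighter in the tissues, at -3.61 in aorta and -1.22 in liver. The probe humanlincRNA1929-_P1 stood at -2.75 and -2.02 in wild-type, -3.21 and -3.71 in knockout and -2.46 and -2.41 in Myocd cells, with no overlap between wild-type and knockout, and was well above background on all 8 arrays. Its knockout difference was -1.07 (SE 0.29), and it stood at -2.79 in aorta and -1.69 in liver. Both were higher in liver than in aorta, unlike most of the 906.

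Among 15 genes that the array names by RefSeq accession, whose probes have 20 spots each and are not in the authors' table, 1 met both thresholds on quantile-normalized values. This was Tfrc, the transferrin receptor, which carries iron into cells, with differences of -1.36 and 0.33 on that scale. Its levels were 6.07 and 6.65 in wild-type, 5.14 and 5.14 in knockout and 6.71 and 6.68 in Myocd cells. Unlike most of the 906 probes it was lower in aorta, at 4.16, than in liver, at 5.31. Of the serum response factor targets and marker genes listed for this work, the array names only Actb, which encodes beta-actin. It did not pass the test in the knockout, with a difference of -0.47 in levels (SE 0.18, limma adjusted p = 0.127).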

How the data were processed

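Agilent Feature Extraction 11.0.1.1 read each 1-colour array and gave a processed intensity per spot, per the file headers. The deposited log2 table came without a stated normalization. Its values lie within 0.05 of a quantile normalization of the processed intensities computed here for 97.8% to 99.8% of probes on the cultured and aorta arrays and 89.4% on liver. Control spots and outlier-flagged spots were left out (60930 probes remained), spots of one probe were averaged, and levels were scaled to each array's 75th percentile. The flags for signal well above background were the scanner software's. No spot was saturated.

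The rule was applied to the deposited log2 values. Group means were compared with limma 3.58.1 in R 4.3.3 (lmFit, eBayes) over the 6 cultured arrays (two-sided, residual degrees of freedom 3). A probe entered the fit if all arrays of 1 or more cultured groups passed its background flag, and the fit was checked on simulated data. SE is limma's. The members and lists were chosen with earlier results of these data known. Printed identifiers follow a rule of at most 2 per direction and comparison (largest falls measured in both groups, highest wild-type levels, largest tissue differences measured in both), with 3 exceptions named as such. The number of arrays limits the precision. Files here lack the mean spot signal, so normexp (offset 50) used the median, and quantile normalization followed it. Alternatives covered scaling, background correction, dim-probe filters, thresholds, fits and single arrays.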

Additional observations from a re-analysis of the deposited data

How the results depend on the processing

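The aorta minus liver median of the selected probes stayed above 0 and above that of the table under every alternative run here, but its size and the counts moved. Applying the rule to quantile normalized values gave a median of 1.14, 327 probes at least 4-fold higher in aorta and a liver minus wild-type median of -3.47, and applying it to levels gave -3.09 for the last. On values with normexp background correction and quantile normalization together (normexp-quantile), the rule found 414 probes, with 111 at least 4-fold higher in aorta and 9 in liver. A fall of 1.5 or more left 236 probes, 41 and 12 of them that much higher in aorta and liver, with an aorta minus wild-type median of -2.43. A Myocd difference under 0.25 left 456 probes, 99 and 17 of them that much higher, with an aorta minus liver median of 1.00, or 1.42 relative to the table. For the same 906 probes, the authors' values gave 1.02, with 300 probes higher in aorta and -3.31 for liver minus wild-type, and quantile normalized values gave 1.13, 328 and -3.45. Normexp-quantile values gave 0.32, or 0.41 relative to the table, with 17 probes higher in liver, -1.38 for aorta minus wild-type and -1.63 for liver minus wild-type.

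Alternatives added after seeing the data restricted the 906 probes. Those measured in both tissues had an aorta minus liver median of 0.33 (0.75 relative to the whole table), those measured on all 6 cultured arrays 0.98 (1.40), and those with both knockout arrays at least 1 below both wild-type arrays 1.095 (1.51). Leaving out single arrays gave 716 to 1298 probes, medians of 0.45 to 1.01 (0.87 to 1.43 relative to the table), 120 to 264 probes higher in aorta and 40 to 65 in liver, -2.17 to -1.75 for aorta minus wild-type and -2.82 to -2.16 for liver minus wild-type.

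In the limma fits, the main counts over all tested probes were 3701 lower and 5395 higher in the knockout and 3172 lower and 3523 higher with Myocd. Lower calls in the knockout numbered 5649 on normexp-quantile values, 2283 without a filter on dim probes and 2298 with only the groups compared, and lower calls with Myocd 1728 without the filter and 1554 with only the groups compared. Of the 906, 5 were called with Myocd on quantile values, where 3740 of all tested probes were called lower and 3601 higher. On normexp-quantile values 35 of the 906 were called, beside 4713 lower and 4278 higher over all. The authors' table gave 3 (3639 lower and 3331 higher over all), and probes measured on all 6 cultured arrays gave 4 (3340 and 3228). A trended and robust prior gave 8 (3901 and 3910). Without the filter (1728 and 2483) or with only the groups compared (1554 and 2352) the number was 0. Single arrays left out gave 842 to 5515 lower and 1859 to 7661 higher in the knockout, 275 to 794 of the 906 called lower, 671 to 4282 lower and 1484 to 4931 higher with Myocd, and 0 to 35 of the 906 called with Myocd. The Myocd difference of ASMM10P034358 turned from 0.89 to -0.17 in the authors' values, which include the flagged spot.

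Whether replicate numbers pair the samples is not stated in the labels. Same-numbered deviations correlated across probes at -0.26 (wild-type with knockout), -0.07 (wild-type with Myocd) and 0.09 (knockout with Myocd). Such correlations cannot settle the pairing, since a shared factor could run against the numbering. With a replicate block, 2361 probes were called lower in the knockout, 598 of the 906 among them, 1817 lower with Myocd, and 0 of the 906 with Myocd. With the knockout numbers crossed, 3304 were lower in the knockout, 711 of the 906 among them, and 0 of the 906 were called with Myocd. A slide block could not be fitted to the Myocd contrast, since slide and Myocd cannot be told apart, and was not run. Causes of these changes were not tested. Dim probes limit the tissue counts, since liver measured 423 of the 906 well above background.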

Other observations

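Identifiers that follow each other in number were more often selected together. Of 845 ASMM10P probes among the 906 that have a neighbouring number in the table, 72 (8.52%) had a neighbour that was also among the 906, where 3.56% of all such ASMM10P probes had one. Whether neighbouring numbers belong to the same gene is not stated in the labels.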
